A study of Mus musculus with 2 samples.

Results

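In nephron progenitor cells, 5948 stretches of the genome at the ends of protein-coding genes were called for Hdac1 and shared no base with any stretch called for Hdac2. The strongest of them lay at Ing2, which encodes a subunit of the Sin3 deacetylase complex, and at Trmt61a, which encodes a methyltransferase of transfer RNA. Of the genes with Hdac1 at an end, 5 of 32 nephron progenitor genes and 3 of 37 Hox genes had such a stretch. Over all genes with Hdac1 at an end the share was 51.1%. At the rate of genes with similarly strong Hdac1 stretches, the 2 counts would be 11.6 and 12.0. That rate takes no account of width, although a stretch of 5 kb or more could not count. The stretches without Hdac2 are called members below. A member is an island, a stretch in which the authors' caller found more chromatin immunoprecipitation reads than in background, from the Hdac1 list. It lies on chromosomes 1 to 19, is narrower than 5 kb, shares not even 1 base with an Hdac2 island, and comes within 1 kb of where a protein-coding gene begins or ends. Of 30182 Hdac1 islands, 29695 were on these chromosomes, 11843 of those were at a gene end, and 10962 of those were under the width limit. The members were 5948 of these 10962, or 54.3% (95% Wilson interval 53.3 to 55.2), and 19.7% of all Hdac1 islands. The other 5014 overlapped an Hdac2 island and are called shared islands. Members covered 11.7 Mb in all. Positions and overlap chose the members, so these counts are a description.

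The cells were wild-type nephron progenitors from mouse embryos at E16.5, kept in culture before they were fixed. A library was made with an antibody against Hdac1 (0.5 µg in the file label) and another with an antibody against Hdac2 (1 µg), each from 500 pg of DNA and with 12 or more cycles of amplification. With 1 library per antibody there was no replicate, so differences are between these 2 libraries and carry no p; the intervals given cover counting error only, and the amount of antibody cannot be told apart from the antibody. No source used here states the read depth. The lists hold no transcript levels, so the identity of the cells could not be checked against the expression of markers. Genes are those of RefSeq (GRCm38.p6, the assembly of mm10).

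Hdac1 and Hdac2 are closely related histone deacetylases. They remove acetyl groups from histone tails as catalytic subunits of the Sin3, NuRD, CoREST and MiDAC complexes, and both proteins can sit in the same complex. Deacetylases are known to be found at the promoters of active genes as well as at silenced ones. In the fetal kidney, the nephron progenitors surround the tips of the ureteric bud and either renew or turn into the renal vesicle, the precursor of the nephron epithelium.

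The promoters of the 6 strongest members with a gene start in the island and a RefSeq promoter show what sequence these islands cover. Each runs 5′ to 3′ from 250 bases before to 50 bases after a RefSeq promoter start. That start was the outermost base of the gene at 4 of the 6; at Cep135 it lay 46 bp and at Efcab11 1000 bp inside the gene. Capitals mark matches, on either strand, to 13 short motifs: TATAAA, the TATA box; CCAAT, the box bound by NF-Y; GGGCGG, the GC box of Sp1; CCGGAAGT, of Ets factors; GCGCATGCG, of Nrf1; CTCGCGAG, a palindrome of housekeeping promoters; TGACGTCA, the cyclic AMP element; CACGTG, the E-box; AAGATGGCG, of Yy1; TCAGGTTTC; TTTGAA, the cell cycle homology region of late cell cycle genes; and TTTCCCGC and TTTGGCGC, of E2f factors. No motif contains another as a whole. A match is a description of the letters, not evidence of a bound factor. Ing2 (chr8:47675110-47675409, minus strand) encodes a subunit of the Sin3 deacetylase complex, and its promoter held 4 GC boxes and 1 CCAAT box. Trmt61a (chr12:111677855-111678154, plus strand) encodes a methyltransferase of transfer RNA, and its promoter held the cyclic AMP element, the Ets motif and the E-box. Cdca5 (chr19:6084847-6085146, plus strand) encodes sororin, which holds sister chromatids together, and its promoter held 2 copies of TTTGAA just before the start. Haspin (chr11:73138245-73138544, minus strand) encodes a mitotic histone kinase, Cep135 (chr5:76588449-76588748, plus strand) a centriole protein, and Efcab11 (chr12:99883393-99883692, minus strand) a calcium-binding protein of the EF-hand type.
Ing2: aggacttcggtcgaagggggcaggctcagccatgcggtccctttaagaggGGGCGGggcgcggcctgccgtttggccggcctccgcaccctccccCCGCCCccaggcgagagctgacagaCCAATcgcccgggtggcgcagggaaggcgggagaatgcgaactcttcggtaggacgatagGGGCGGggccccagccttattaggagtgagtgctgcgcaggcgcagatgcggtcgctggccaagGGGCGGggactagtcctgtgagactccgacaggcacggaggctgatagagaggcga
Trmt61a: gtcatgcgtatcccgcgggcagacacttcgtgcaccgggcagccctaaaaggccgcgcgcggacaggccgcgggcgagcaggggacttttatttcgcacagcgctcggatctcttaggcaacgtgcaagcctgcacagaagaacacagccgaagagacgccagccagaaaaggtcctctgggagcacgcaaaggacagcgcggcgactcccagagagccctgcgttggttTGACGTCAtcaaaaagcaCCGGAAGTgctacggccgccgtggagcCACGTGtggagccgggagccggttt
Cdca5: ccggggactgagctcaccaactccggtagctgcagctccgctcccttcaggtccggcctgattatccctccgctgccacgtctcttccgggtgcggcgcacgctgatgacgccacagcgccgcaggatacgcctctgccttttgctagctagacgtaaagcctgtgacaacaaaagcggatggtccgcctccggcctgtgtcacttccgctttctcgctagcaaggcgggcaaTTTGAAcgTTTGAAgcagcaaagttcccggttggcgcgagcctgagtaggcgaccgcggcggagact
Haspin: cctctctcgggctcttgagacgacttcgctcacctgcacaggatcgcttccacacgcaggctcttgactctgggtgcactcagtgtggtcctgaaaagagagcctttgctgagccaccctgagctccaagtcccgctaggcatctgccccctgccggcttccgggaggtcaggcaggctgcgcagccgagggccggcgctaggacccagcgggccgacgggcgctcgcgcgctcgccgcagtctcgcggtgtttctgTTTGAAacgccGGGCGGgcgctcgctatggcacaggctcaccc
Cep135: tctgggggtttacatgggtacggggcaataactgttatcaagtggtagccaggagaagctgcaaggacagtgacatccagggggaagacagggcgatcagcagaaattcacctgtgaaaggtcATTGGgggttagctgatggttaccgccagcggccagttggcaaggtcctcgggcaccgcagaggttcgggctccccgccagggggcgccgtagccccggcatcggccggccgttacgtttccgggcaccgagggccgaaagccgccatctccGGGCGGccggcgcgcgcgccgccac
Efcab11: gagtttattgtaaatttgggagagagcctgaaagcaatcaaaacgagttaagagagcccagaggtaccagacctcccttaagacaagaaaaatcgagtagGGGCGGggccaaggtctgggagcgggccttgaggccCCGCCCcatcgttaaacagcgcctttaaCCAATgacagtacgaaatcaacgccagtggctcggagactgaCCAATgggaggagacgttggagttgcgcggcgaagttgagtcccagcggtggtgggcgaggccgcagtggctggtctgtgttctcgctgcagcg

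For each motif found in at least 1% of promoters at members that these 6 promoters did not stand for, the stretch around the match is shown at the strongest member that holds it, with only that match in capitals. Eif3f (chr7:108934318-108934395, plus strand), a subunit of a translation initiation factor, held a TATA box 61 bp before its promoter start. Tdp1 (chr12:99884453-99884533, plus strand), which clears topoisomerase lesions from DNA, held the Nrf1 motif 29 bp before its promoter start, which lies 3 bp from the outermost base of the gene; it shares its island with Efcab11, which is read the other way. Ccnb1 (chr13:100786664-100786736, minus strand), the mitotic cyclin B, held the CTCGCGAG palindrome 221 bp before its start. Suv39h2 (chr2:3474937-3474985, minus strand), a methyltransferase of histone H3, held the Yy1 motif 37 bp after its start. Terf2ip (chr8:112011109-112011180, plus strand), a telomere protein, held the E2f motif on the other strand 222 bp before its start.
Eif3f: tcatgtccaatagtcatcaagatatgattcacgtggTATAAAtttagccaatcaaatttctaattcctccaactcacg
Tdp1: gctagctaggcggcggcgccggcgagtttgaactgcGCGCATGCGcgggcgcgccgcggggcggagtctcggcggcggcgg
Ccnb1: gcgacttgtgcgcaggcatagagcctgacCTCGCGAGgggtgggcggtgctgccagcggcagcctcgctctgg
Suv39h2: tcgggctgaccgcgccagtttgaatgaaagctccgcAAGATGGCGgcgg
Terf2ip: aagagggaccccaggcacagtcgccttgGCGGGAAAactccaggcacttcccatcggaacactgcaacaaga

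Each island carries 1 value of the authors, a p-value or q-value against background, and nothing states which; the lower it is, the stronger the island. The lowest value of any member was 1.21e-278, at Ing2, in an island of 3.8 kb that ranked 121 among all Hdac1 islands. Next came Trmt61a at 1.52e-249, and the island between Bop1, a factor of large ribosomal subunit assembly, and Hsf1, the heat shock transcription factor, at 5.33e-249. Cdca5, with the Golgi gene Zfpl1 at the same island, followed at 5.57e-249, and Haspin at 9.57e-248. The value then stepped to 2.74e-213 at Cep135 and 1.4e-212 at Efcab11 and Tdp1.

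Of the 25 strongest members, 12 touched a gene of the 8 cell division lists described below. Over all members the share was 1.51%, but 7 of these lists were drawn up after these 25 had been seen, so the count is built in and is a description. Beside Cdca5 and Haspin, these included Cit, the citron kinase of cytokinesis, at 1.31e-199, and the island at Nusap1, a spindle protein, and Oip5, which loads centromeric histone, at 3.86e-195. The island at Hmmr, a spindle protein, and Nudcd2 stood at 5.61e-193. Kif20a and Kif15 encode motors of the dividing cell. The island at Kif20a and Brd8 had the value 2.12e-191, and that at Kif15 and 1110059G10Rik had 1.22e-185. Mis18a, the partner of Oip5 in loading centromeric histone, stood at 2.12e-182, Bub1, a kinase of the spindle checkpoint, at 6.47e-180, and Cdk1, the kinase that drives entry into mitosis, at 2.08e-178. Cep55, which acts in the final cut between daughter cells, stood at 3.21e-176 and Ect2, the exchange factor that places the cleavage furrow, at 4.18e-175.

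Of the rest of the 25, Hrob, a factor of recombination repair, had the value 8.63e-209 and Nasp, a histone chaperone, 3.52e-198. The ends of 3 genes met at an island of 3.2 kb with the value 8.3e-197: Baiap3, Gnptg, a subunit of the enzyme that tags lysosomal proteins, and Tsr3, which modifies ribosomal RNA. Utp20, of the small ribosomal subunit processome, stood at 3.15e-194, Gar1, of the complex that makes pseudouridine, at 1.28e-182, and Lsm2, of the ring that binds spliceosomal RNA, at 1.06e-181. The list was completed by Ncdn with AU040320 at 4.19e-183 and Diablo, a mitochondrial protein that promotes apoptosis, at 1.74e-178. The nearest Hdac2 island to these 25 lay between 8.6 kb (Lsm2) and 138.6 kb (Ing2) away.

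As a whole, members were weaker and narrower than shared islands. The median value was 4.96e-28 (quartiles 3.14e-49 and 2.74e-14, range 1.21e-278 to 0.0577) over members and 3.04e-65 over shared islands. The median width was 1.8 kb (quartiles 1.4 and 2.4 kb, range 0.2 to 4.8 kb) against 2.6 kb (quartiles 2 and 3.4 kb). Members were, however, stronger than Hdac1 islands without Hdac2 away from gene ends. The 6176 such islands inside genes had a median value of 2.51e-09, and the 5438 between genes had 4.36e-09, both with a median width of 1.6 kb.

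The share without Hdac2 went with the strength of the Hdac1 island. All Hdac1 islands were ranked by value and divided into 10 deciles, the first being the strongest. In that decile 398 of the narrow islands at gene ends were members and 1688 were shared, so 19.1% lay off Hdac2 (95% interval 17.4 to 20.8). The share was 38.6% in the next decile, 54.2% in decile 3, 67.7% in decile 4 and 77.5% in decile 5. It lay between 84.7% and 93.5% in deciles 6 to 10. By number, members peaked in decile 3 with 1133 islands, and deciles 2 to 4 held 914, 1133 and 1005 of them. Within deciles members were narrower too: the median width in decile 1 was 2.2 kb for members and 3 kb for shared islands, and in decile 5 it was 1.8 kb and 2.2 kb. A decile does not make strengths equal, since shared islands reached a value of 0 in decile 1 and the strongest member ranked 121. Which islands count as members also depends on where the Hdac2 list ends: with the upper 50% of the Hdac2 islands by value, 8617 Hdac1 islands lay off Hdac2 at gene ends.

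**Figure D1:**
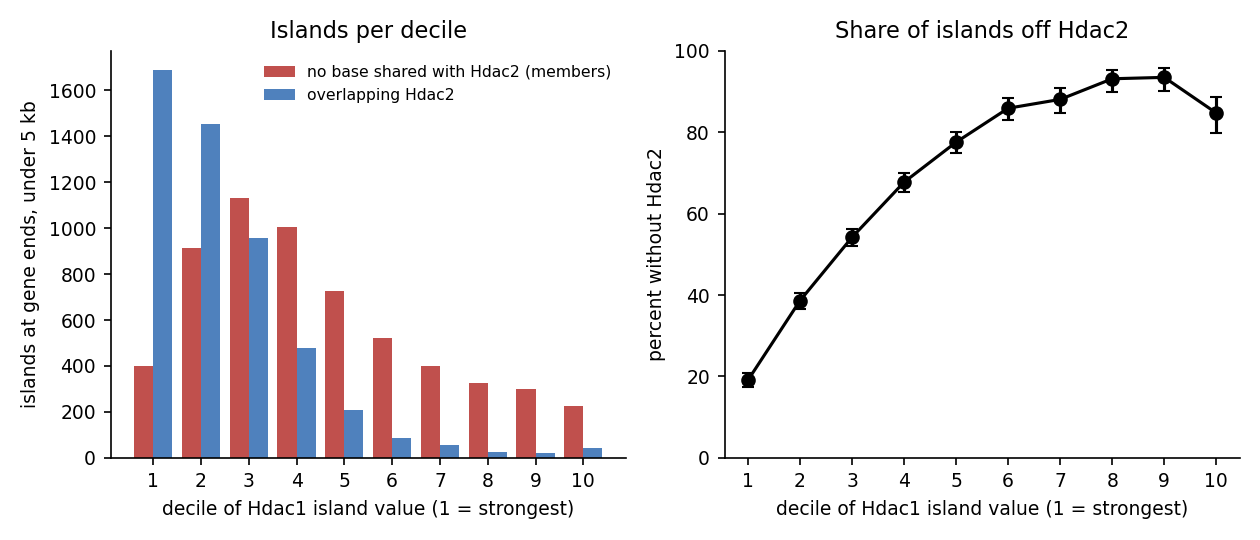
Left, number of Hdac1 islands under 5 kb at gene ends in each decile of the Hdac1 value (1 = strongest), members in red and islands overlapping Hdac2 in blue. Right, percent of these islands without Hdac2, with 95% Wilson intervals that cover counting error only; the share went from 19.1% in decile 1 to 93.5% in decile 9.

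The limits of the rule cut through few islands. At the greatest width, 4.8 kb, there were 28 members, and 94 islands off Hdac2 at gene ends reached 5 kb or more. Among the widest members were those at Lpin2, a phosphatase of lipid synthesis (2.48e-80), and Znfx1, a helicase of antiviral defence (2.97e-73). Just over the limit, at 5 kb, lay islands at Dact3, an inhibitor of Wnt signalling (8.74e-90), Ubald2 (1.11e-79), and Rab26 and Traf7 (1.78e-63). Overlap was rarely marginal. Of the 5014 shared islands, 2 had at most 10% of their bases under Hdac2, and the median shared island was covered over 75% of its length. An Hdac2 island was met end to end by 3 members: those at Nxph4 (3.07e-06), at Hjurp, the chaperone of centromeric histone (0.000523), and at Rpl24 and Zbtb11 (0.00685). All 3 were weak.

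Most members lay more than 10 kb from any Hdac2 island. Distances from random positions were not computed, so the values are a description. The nearest Hdac2 island was a median of 37.8 kb away (quartiles 16.2 and 76.4 kb). It was within 1 kb for 49 members (0.824%), within 5 kb for 433 (7.28%), within 10 kb for 972 (16.3%) and within 100 kb for 4956 (83.3%). Hdac1 islands without Hdac2 in other places were nearer. Inside genes the median distance was 26 kb and 26.0% had Hdac2 within 10 kb, and between genes it was 28 kb and 24.5%. The distance did not grow as the islands weakened. Its median was 44.4 kb in decile 1, 36.6 kb in decile 3, 38.2 kb in decile 5 and 26.6 kb in decile 10.

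**Figure D2:**
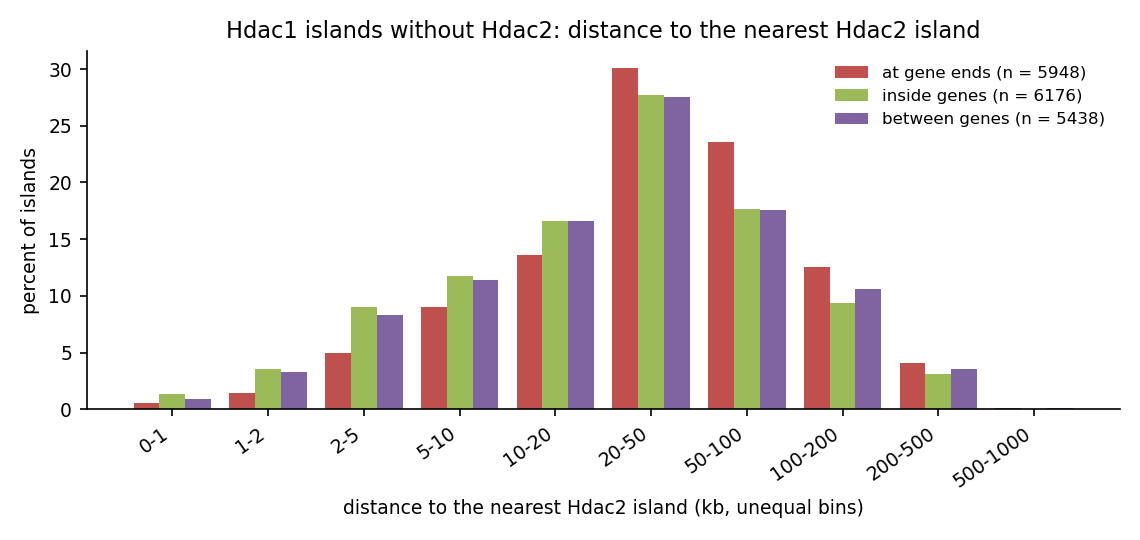
Percent of Hdac1 islands without Hdac2 by distance to the nearest Hdac2 island, in unequal bins of kb, for the 5948 members at gene ends (red), 6176 islands inside genes (green) and 5438 between genes (purple). In the bin of 20 to 50 kb lay 30.1% of the members, the fullest bin, and in that of 50 to 100 kb lay 23.6% of the members, against 17.6% of either other set.

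The nearest and farthest members were of different kinds. Beside the 3 that met Hdac2, the nearest were at Trmt10c, a methyltransferase of mitochondrial transfer RNA, with a value of 2.24e-63 and Hdac2 at 0.2 kb, and at the 3′ end of Rem1 (7.95e-13), also at 0.2 kb. The farthest were all at the starts of genes known from the nervous system. They were Lingo2, a membrane protein of neurons, at 644.6 kb, Dscam, an adhesion molecule of axons, at 629.8 kb, Slitrk1, a synaptic membrane protein, at 548 kb, Grm7, a glutamate receptor, at 508.4 kb, and Chrm3, a muscarinic receptor, at 502.6 kb. Their values ran from 1.86e-37 at Dscam to 1.9e-10 at Lingo2. The Slitrk1 island was the narrowest member of all, at 0.2 kb.

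Members lay mainly at gene starts. The gene table has no strand, which was taken from the RefSeq promoter table for 16457 of 20665 autosomal protein-coding genes. At least 1 touched end is thus known for 4794 members. Ends of genes without a known strand were ignored in these members, so some may touch further starts or other ends. Of the 4794 members, 3879 (80.9%) touched a start only, 467 (9.74%) a start and another gene end, and 448 (9.35%) an end other than a start. Together 90.7% (95% interval 89.8 to 91.5) touched a start. Among shared islands the share was 95.7% (95.02 to 96.3), and 4.32% touched other ends only. Islands at other ends were weaker. Their median value was 4.31e-11, against 4.89e-31 for members at a start only. A RefSeq promoter of any kind of gene lay within 1 kb of 37 of these 448 (8.26%).

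The islands were centred a little inside the gene. Over the 3972 members touching starts on 1 strand only, the island's centre lay a median of 276.5 bp downstream of the start, and downstream in 77.6% of them. For shared islands the median was 403.5 bp, with 80.6% downstream. The start itself lay within the island in 91.1% of members and 93.7% of shared islands. Members reached less far on both sides. At 1 kb into the gene 60.2% of members and 83.7% of shared islands still covered the position, and at 1 kb before the start 22.8% and 38.2% did.

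**Figure D3:**
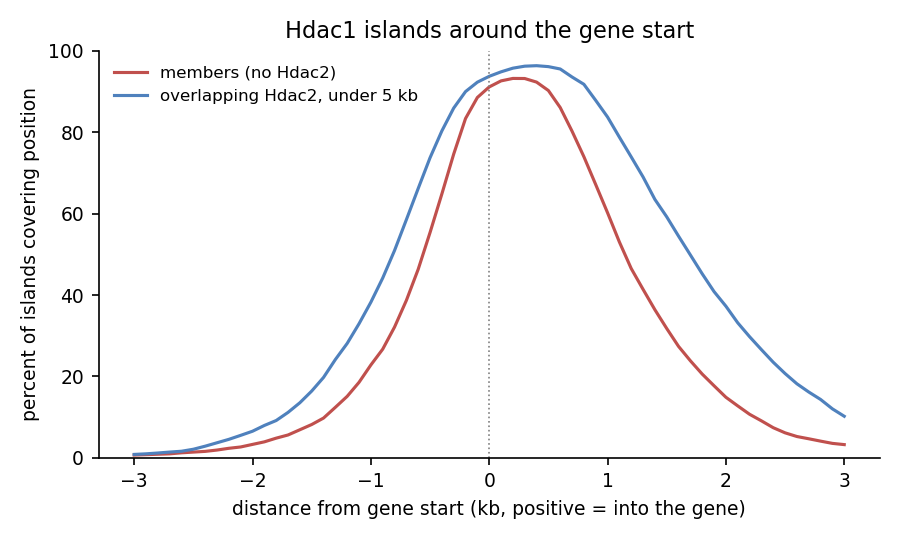
Percent of Hdac1 islands that cover each position from 3 kb before to 3 kb after the gene start (positive = into the gene), for 3972 members in red and 3458 islands overlapping Hdac2 in blue. Both curves are shifted into the gene; at the start they stand at 91.1% and 93.7%, and at 1 kb into the gene at 60.2% and 83.7%.

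Starts of genes on opposite strands often shared a strong member. Starts on both strands were touched by 374 members (6.29%, 95% interval 5.70 to 6.93) and by 486 shared islands (9.69%, 8.91 to 10.5). Whether such genes are read away from or over each other was not sorted. Within deciles of strength the order was the other way. In decile 1, 83 of 398 members (20.9%, 17.2 to 25.1) and 254 of 1688 shared islands (15.1%, 13.4 to 16.8) touched starts on both strands, and these intervals do not overlap. In decile 2 the shares were 11.9% and 10.3%, and in decile 3 they were 7.502% and 5.64%, with overlapping intervals. Ends of 3 or more genes met at 48 members. The strongest of these after the Baiap3 island were at Alg3, an enzyme of protein glycosylation, with Eef1akmt4 and its readthrough gene (1.33e-145), and at Bysl and Med20, of ribosome assembly and the Mediator complex (6.36e-133). They were followed by Ak6, Rad17 and Taf9 (3.15e-114), and by Cdan1, Stard9 and Ttbk2 (4.54e-112). By chromosome, the share of narrow islands at gene ends that were members went from 51.1% on chromosome 3 to 60.6% on chromosome 7 (95% interval 57.3 to 63.8), where it was highest.

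Through their ends, members marked 6620 genes. These were 32.0% of the 20665 genes tested and 51.1% of the 12947 with any Hdac1 island at an end, and the counts below are read against the latter. Most of these genes had no Hdac2 island on the authors' list: in 5368 (81.1%) none lay in the gene or within 1 kb of it. The rule sets part of this share, since it bars Hdac2 from the member island. The same share over all genes was not computed. In 561 of the 6620 genes (8.47%) an Hdac2 island lay at an end of the gene, and in 691 (10.4%) it lay within the gene only. At 413 genes there were 2 or more member islands. A gene counts through either end, also where the island lies at the start of another gene. Genes with a member had a median length of 19.6 kb, those with a shared island 27.1 kb, and those with no island at an end 9.61 kb. Since weaker islands were more often off Hdac2, each gene list below is also set beside the count it would have if its genes had members as often as all genes in the same decile of their strongest Hdac1 island. That share went from 22.4% in decile 1 to 93.7% in decile 9. It takes no account of width: 1131 genes had an Hdac1 island of 5 kb or more at an end, which cannot be a member. The part of width in the differences from these counts was not tested.

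At cell division genes the count of members lay above the count from the deciles of strength in most lists. Of 39 proliferation genes all had Hdac1 at an end, and 19 (48.7%, 95% interval 33.9 to 63.8) had a member, where the deciles of strength gave 11.5. Their member islands had a median value of 4.78e-102, and 10 of the 19 were in decile 1. The strongest were at Cdca5, Bub1, Cdk1 and Ccnb1 (2.63e-169). Of 51 kinetochore and spindle genes with Hdac1, 31 (60.8%, 47.1 to 73.0) had a member, against 15.0 from the deciles, and 21 of the 31 were in decile 1. This list, like those of kinesins, Cenp genes, cyclins, ribosome biogenesis and others marked in the plot of gene lists, was drawn up after the strongest members had been seen, so its count is not independent of them. Of 33 kinesins 16 had a member (13.5 from the deciles), among them Kif2c, a depolymerase of spindle microtubules (9.27e-167). Of 20 Cenp genes, of the centromere, 9 did (6.44), with Cenpf at 6.93e-153 and Cenph at 7.86e-133.

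The other division lists lay closer to the count from the deciles. Of 32 cyclins and cyclin-dependent kinases, 9 had a member (11.8 from the deciles), with Ccnb2, a mitotic cyclin, at 6.36e-151 and Cdk2 at 1.14e-55. Of 18 condensin, cohesin and related genes 5 did (5.58), the strongest at Esco2, an acetyltransferase of cohesin (1.25e-140). Of 9 genes of the anaphase-promoting complex 5 did (3.46), and of 7 augmin genes 3 (2.93). The 8 division lists held 201 genes together. Members in decile 1 touched one of these genes in 37 of 398 cases (9.30%, 6.82 to 12.6), and shared islands of that decile in 74 of 1688 (4.38%, 3.51 to 5.47). This contrast is in part built in and is a description. Of the 8 lists 7 were drawn up after the 25 strongest members had been seen, and 12 of those 25, all in decile 1, are among the 37. Over all deciles it was 90 members (1.51%) and 106 shared islands (2.11%).

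Genes of the mitochondrion and of protein breakdown were frequent among members. Of 76 respiratory chain genes with Hdac1, 54 (71.1%, 60.04 to 80.04) had a member, against 42.4 from the deciles. Examples are Ndufb6, of complex I (5.64e-111, at its 3′ end), and Uqcrc2, of complex III (4.62e-75). The island at Ndufb6 also touched the start of Topors and both ends of Smim27. Of 77 mitochondrial ribosomal protein genes 53 (68.8%, 57.8 to 78.1) had one, against 39.0, with Mrps27 at 1.36e-110 and Mrpl21 at 1.44e-108. Of 43 proteasome genes 29 (67.4%, 52.5 to 79.5) had one, against 19.5. They include Psmc2, an ATPase of the cap (7.23e-166), and Psmb10, a subunit of the immunoproteasome (5.35e-141). Autophagy genes had a member in 12 of 16 cases (7.44), led by Atg12 (7.21e-92), and peroxins, which build peroxisomes, in 11 of 16 (7.83), led by Pex6 (7.67e-133).

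The machinery of transcription and translation was mixed. Mediator, the coactivator that links factors to RNA polymerase, had members at 19 of 27 genes (70.4%, 51.5 to 84.2; 12.0 from the deciles), with Med20 at 6.36e-133 and Med26 at 1.71e-126 at its start; a stronger member at the 3′ end of Med26 (6.23e-150) touches the start of Slc35e1 as well. RNA polymerase subunits had them at 16 of 28 (12.6), splicing genes at 23 of 44 (19) and RNA helicases at 27 of 46 (20.2), led by Ddx21, a nucleolar helicase (1.12e-137). Transfer RNA synthetases had them at 21 of 36 (16.4) and transfer RNA modifying enzymes at 22 of 41 (20.9). Cytosolic ribosomal protein genes had them at 37 of 74 (29.8), led by Rps18 (2.28e-127) and Rpl22 (2.02e-119). Translation initiation factors lay below the background, with 18 of 50 (36%, 24.1 to 49.9; 19.9 from the deciles). Ribosome biogenesis genes, among them Bop1 and Utp20, had members at 23 of 43 (17.0).

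Genes of the centrosome, of repair and of trafficking lay near or above the background. Centrosome and cilium genes had members in 33 of 54 cases (61.1%, 47.8 to 73.0; 24.8), with Cep152, a centriole protein, at 2.56e-116. DNA repair genes had them in 22 of 42 (19.7), led by Palb2, which brings Brca2 to breaks (5.37e-130). Vps sorting genes had them in 18 of 33 (14.7), Rab genes in 27 of 49 (24.8) and SNARE genes in 13 of 24 (12.5). Zfp genes had members in 207 of 322 cases (64.3%, 58.9 to 69.3), and the deciles of their rather weak islands gave 196.2. Zbtb genes, another family of zinc finger factors, lay below the background, with 11 of 36 (30.6%, 18 to 46.9, and 13.1 from the deciles). They were led by Zbtb49 (1.29e-125). Ubiquitin E2 enzymes lay below it too, with 10 of 31 (32.3%, 18.6 to 49.9, and 10.9 from the deciles). Genes of the p53 pathway had members in 11 of 27 (40.7%, 24.5 to 59.3, and 10.3), led by Atr, the kinase of stalled forks (4.47e-107).

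The genes of the deacetylase complexes themselves were also touched. All 42 had Hdac1 at an end and 15 (35.7%, 22.99 to 50.8) had a member, where the deciles gave 12.7. That share lay below the 51.1% over all genes with Hdac1 at an end, and the count was close to that from the deciles. After Ing2 came Brms1, of the Sin3 complex, with 2 member islands (1.35e-107 and 3.59e-36), and Mta2, of NuRD, also with 2 (7.81e-95 and 3.24e-36). Gatad2a (3.63e-84) and Mta1 (3.92e-79) of NuRD, Sap18 of the Sin3 complex (3.34e-59), and Kdm1a, the demethylase of CoREST (4.23e-51), had a member at their starts. So did Brms1l (2.65e-48), Sin3b, the scaffold (7.02e-38), Mideas, of MiDAC (1.48e-38, with a member of 2.65e-35 at its 3′ end), and Chd5, a remodeller of NuRD (2.8e-27). In 4 of the 15 genes an Hdac2 island lay at an end as well. Chd4, the main remodeller of NuRD, had its member at the 3′ end (1.77e-91), in an island that touched the ends of 2 genes. At its start Chd4 had a broad Hdac1 island of 7.6 kb under Hdac2. Dnttip1, of MiDAC, had a member at the start (4.25e-47) and a far stronger shared island at its 3′ end (2.38e-182). At Hmg20b, of CoREST, the member (6e-36) lay 0.8 kb from Hdac2. Hdac1 itself had a member of 1.8 kb at chr4:129541601-129543400 (1.15e-41) and a shared island of 3.8 kb at its opposite end (1.74e-168). Of 23 acetyltransferase genes, whose products oppose deacetylases, 5 (21.7%, 9.66 to 41.9) had a member, against 9.23, the strongest at Ep300 (6.39e-138).

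Few nephron progenitor genes had members. Of the 33 tested 32 had Hdac1 at an end, 27 had Hdac2 at an end, and 5 (15.6%, 6.86 to 31.8) had a member, where the deciles gave 11.6. None of the 5 islands was in decile 1. Sall4, a zinc finger factor of stem cells (1.83e-43), Rspo3, a secreted enhancer of Wnt signalling (4.7e-35), Crym (1.74e-12) and Meox1, a homeobox factor of uncommitted progenitors (7.81e-07), had no Hdac2 island within 1 kb of an end. Meox1 also had a stronger Hdac1 island at its opposite end that overlapped Hdac2 (3.67e-28). Six2, the factor that keeps progenitors from differentiating, had its member at the 3′ end of its RefSeq outline (chr17:85662736-85688254). This island lay at chr17:85663601-85665400 (1.8 kb, 4.43e-11). The start of Six2 lay under a broad Hdac1 island of 17.4 kb listed at 0 and an Hdac2 island of 18.2 kb (4.76e-26). Cited1 is not on the chromosomes tested.

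Genes of the renal vesicle and of neighbouring cells had weak members. Of 26 renal vesicle genes with Hdac1, 9 (34.6%, 19.4 to 53.8) had a member, against 14.7 from the deciles, and the median value of these islands was 9.05e-13. Dkk1, a Wnt inhibitor, had the strongest (2.2e-31), followed by Pax8, a factor of early nephron epithelium (8.09e-22), Irx1 (1.01e-19) and Hes5, a Notch target (2.03e-19). Then came Osr2 (9.05e-13), Irx2 (2.4e-12), Cdh1, the epithelial cadherin (1.99e-09), Heyl (1.04e-07) and Fgf8, a growth factor of the vesicle (5.34e-07). No Hdac2 island lay within 1 kb of an end of these 9 genes, but Heyl had at its opposite end a stronger Hdac1 island that overlapped Hdac2 farther in (3.8e-20). Of the ureteric bud list, 7 of 15 genes had a member (8.10), the strongest at Wnt11, a ligand of the bud tip (1.17e-54). Of the podocyte and tubule list 2 of 7 did (4.46), Calb1 (2.14e-19) and Ptpro (1.11e-13). Of the stroma list 2 of 14 did (7.11), Col1a1 (5.73e-25) and Col1a2 (2.44e-10).

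Genes of other lineages gave weak members too. The endothelium and blood list had members in 7 of 9 genes with Hdac1 (6.19 from the deciles). The strongest was at Kdr, a receptor of vascular endothelial growth factor (3.62e-31). The list of distant lineages had members in 6 of 10 (7.32), with Myod1, the muscle factor, at 6.57e-27 and Neurod1 at 4.03e-09. Neither list had a member in decile 1. Hox genes, which set position along the body, had the lowest share of the larger lists. Of 37 with Hdac1 3 (8.11%, 2.80 to 21.3) had a member, against 12.0, at Hoxc13 (2.11e-12), the 3′ end of Hoxa5 (2.14e-11) and Hoxc12 (3.67e-09). Of 17 Wnt genes 7 had a member (9.6 from the deciles), of 16 Sox genes 5 (8.16), of 35 Fox genes 16 (16.8) and of 9 Tbx genes 4 (5.91). Of 233 Slc transporters 121 (51.9%) did, against 133.2. In families known from other tissues Hdac1 was rare. Of 1100 olfactory receptor genes 3 had Hdac1 at an end and 1, Olfr94, a member (2.36 from the deciles). Of 49 keratins all 6 with Hdac1 had a member (4.35).

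Promoters at members were rich in CpG, but less so than those at shared islands. For 5242 of the 6620 genes with a member RefSeq held a promoter; over all genes with one, its start lay within 100 bp of the outermost base of the gene in 77.0% of cases. Their median ratio of observed to expected CpG was 0.728, against 0.816 for genes with a shared island, 0.190 for genes with no island of either list at an end, and 0.597 over all promoters. The TATA box was found in 7.36% of them, in 5.70% of promoters of genes with a shared island and in 25.1% of those with no island. The GC box was found in 62.3%, 70.5% and 15.2%, respectively. The Nrf1 motif (3.95%, 3.397% and 0.554%), the Yy1 motif (3.21%, 3.02% and 0.285%) and the cyclic AMP element (3.66%, 3.27% and 0.621%) were found mainly at genes with an island, at like shares for members and shared islands. CCAAT was found in 40.4% of promoters at members, 37.2% at shared islands and 39.1% overall. The E-box was found in 10.2% at members, 10% at shared islands and 7.97% of all promoters. In the same order, the palindrome was found in 1.62%, 2.215% and 1.29%. Of the E2f motifs, TTTCCCGC was found in 1.97%, 2.405% and 1.48%, and TTTGGCGC in 0.878%, 0.971% and 0.675%. For TCAGGTTTC the shares were 0.305%, 0.401% and 0.450%.

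The Ets motif was found more often at strong members than at shared islands in the same decile. For this, gene starts were grouped by the strongest Hdac1 island within 1 kb, which gave 4738 starts at members and 4452 at shared islands. CCGGAAGT, as at Trmt61a, was found at 9.54% (95% interval 8.74 to 10.4) of the former and 7.75% (7 to 8.57) of the latter, and at 5.44% of all promoters. In decile 1 it was found at 74 of 418 starts at members (17.7%, 14.3 to 21.7) and at 156 of 1650 at shared islands (9.45%, 8.13 to 10.96). In decile 2 the shares were 14.2% (12.0 to 16.7) and 8.76% (7.36 to 10.4), and in decile 3 they were 11.3% (9.52 to 13.4) and 5.84% (4.43 to 7.66). The intervals did not overlap in these 3 deciles. Starts that share an island were counted separately, and neighbouring starts can hold the same match. The intervals treat every start as independent, here and for the cell cycle motif below. Base composition differed alongside: the median GC content was 63.0% at members and 66.3% at shared islands in decile 1, and 59.7% and 64.3% over all deciles. Its part in the motif shares was not tested. The CpG ratio in decile 1 was 0.886 and 0.880.

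The cell cycle motif was found more often at the strongest members. TTTGAA, as at Cdca5 and Haspin, was searched after the strongest members had been seen to be mitosis genes. It was found at 77 of 418 starts at members in decile 1 (18.4%, 15.0 to 22.4) and at 183 of 1650 at shared islands (11.1%, 9.66 to 12.7). In decile 2 the shares were 11.5% and 9.88%, and in decile 3 they were 9.84% and 7.42%. In decile 4 they were 12.7% (10.59 to 15.11) and 7.49% (5.23 to 10.61), so a difference was not confined to the strongest members. In decile 5 they were 12.6% and 12.2%, and in deciles 6 to 10 they were 12.3% and 14.6%. The intervals overlapped in all of these but barely in decile 4. These 6 letters are common where GC content is low: they were found in 15.9% of all promoters and in 24.01% of those with no island. At kinetochore and spindle genes TTTGAA was found at 17 of 25 starts at members (68.0%) and at 9 of 14 at shared islands (64.3%), so within this list its share was alike with and without Hdac2, with wide intervals (48.4 to 82.8 and 38.8 to 83.7).

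**Figure D4:**
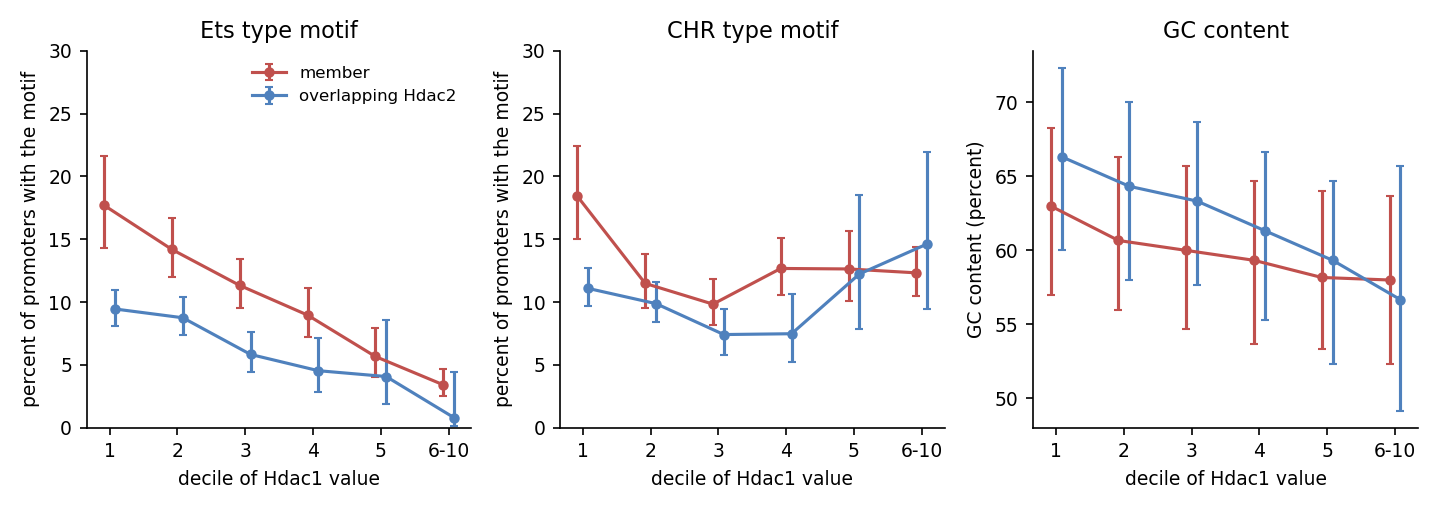
Percent of promoters with the Ets motif CCGGAAGT (left) or the cell cycle motif TTTGAA (middle), and median GC content (right), by decile of the Hdac1 value (deciles 6 to 10 joined), at starts with a member island (red) or an island overlapping Hdac2 (blue). Bars are 95% Wilson intervals for counting error in the left and middle panels and quartiles in the right panel; in decile 1 the Ets motif stood at 17.7% and 9.45%.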

How the data were processed

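Chromatin immunoprecipitation sequencing gave 1 island list per antibody. Build mm10 was used, per the submitters' processing notes, which also name SICER, bedtools 2.17, SAMtools 1.3.1, BWA 0.7.5a and FastQC. How SICER was set and its version, the background library, any pooling and the read depth were not given in the sources used here. Each island has 1 deposited value, which is a p-value or a q-value from the authors. Islands are built in steps of 200 bp, so their edges are coarse; positions are given 1-based.

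Genes and promoters came from RefSeq (GRCm38.p6). Overlap meant 1 shared base or more. Deciles were taken over all Hdac1 islands. No test between libraries was made; shares carry 95% Wilson intervals (scipy 1.17.1, pandas 2.3.3, numpy 2.4.6 and matplotlib 3.10.9 under Python 3.11.15). The members, the 46 first gene lists and the 10 first motifs were chosen with earlier results of these data known; 8 lists and 3 motifs were added after the strongest members were seen. Named are genes at the 25 strongest, the 10 widest (in part), and the 5 nearest and 5 farthest members, the 5 strongest members at 3 or more genes, those at the width limit, up to 4 per list, and every member gene of the progenitor, renal vesicle, podocyte and tubule, and deacetylase lists; of the other cell type lists a part is named. Individual results of some named genes are not reported here. Sequence outside the RefSeq promoters, exons and introns were not analysed here. The steps were tested on simulated data. Alternatives were other windows, overlap definitions, width limits, stricter lists, merged islands and other gene sets.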

Additional observations from a re-analysis of the deposited data

How the results depend on the processing

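The number of members went from 4175 with the upper 50% of Hdac1 islands by value to 8617 with the upper 50% of Hdac2 islands, and the number of genes from 4872 to 9523, within 1.5 times of 5948 and 6620 under the alternatives run. The share of members at a start was 92.5% with windows of 500 bp, 87.8% with 2 kb, 84.7% with 5 kb, 91.5% with no Hdac2 within 5 kb, 96.3% with the upper Hdac1 islands and 92.2% with the upper Hdac2 islands. It was 72.6% where any RefSeq promoter start within 1 kb counts over all 5948 members, an alternative chosen after seeing the data, because members at genes without a known strand then stay in the denominator. The share of narrow islands off Hdac2 was 57.1% with 5 kb windows, 50.3% with no Hdac2 within 5 kb, 46.6% with the upper Hdac1 islands, 78.6% with the upper Hdac2 islands, 51.0% with no width limit and 63.4% with a limit of 3 kb. Fewer Hdac2 islands leave more Hdac1 islands off them by construction. The median width was 2 kb with either stricter list and 1.6 kb with the 3 kb limit. Hdac2 lay within 10 kb of 17.4% of members with 2 kb windows, 20.9% with 5 kb windows and 7.06% with the upper Hdac2 islands. The median CpG ratio was 0.794 for the upper 50% of members. Apart from these effects of construction, the cause was not tested. Of 44 gene lists, the count of member genes stayed within 1.5 times in 44 with no Hdac2 within 1 kb, 43 with 2 kb windows, 29 with the upper Hdac1 islands and 27 with the upper Hdac2 islands. With the upper Hdac2 islands, progenitor genes with a member numbered 11, Hox genes 6, deacetylase complex genes 26 and acetyltransferase genes 17. With the upper Hdac1 islands no Hox gene had a member, and 2 progenitor and 4 renal vesicle genes did. No paired analysis was possible because there was 1 library per antibody; for the same reason no replicate could be left out. An Hdac2 signal below the authors' threshold would count as no Hdac2, and without read depth its limit is unknown.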
